A study of Rattus norvegicus with 23 samples.

Results

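The comparison set rat dorsal root ganglia (DRG) taken 18 and 24 h after the sciatic nerve was cut against ganglia taken 4 and 8 h after the same cut. Its members were fixed by the array titles, as the mean log2 ratio of the 6 arrays of 18 and 24 h minus the mean of the 6 arrays of 4 and 8 h. These were 12 of the 23 arrays of a time course with 8 times, and 4936 of the 5088 probes were measured on at least 5 arrays of each side and entered the test. The ganglia, L4 and L5, came from Long-Evans rats of postnatal day 20 to 24 at surgery, and every array paired lesioned RNA (Cy5) with intact RNA (Cy3). The first side held 3 arrays of 18 h and 3 arrays of 24 h, and the second side held 3 arrays of 4 h and 3 arrays of 8 h, so all 4 times had the same nerve cut, the same age window and an intact partner. The labels also name cultured DRG cells as the source and cAMP in the labelling step, and the lesion and time labels were followed here. They do not state whether replicate arrays came from separate animals, how many animals a sample pooled or at which time the intact ganglia were taken, so the spread behind each p-value is that between arrays and may be technical. Ratios hold no expression level, so the labelled tissue could not be checked against the levels of its markers. In whole ganglia, fewer cells of a type and less RNA per cell cannot be told apart.

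DRG neurons send a peripheral branch into the nerve and a central branch into the spinal cord. After the peripheral branch is cut, the neurons are known to induce stress-responsive transcription factors, then cytoskeletal proteins, chaperones and neuropeptides that accompany axon growth. Such a peripheral lesion is called a conditioning lesion because the central branch then grows better after a later injury. The comparison asks which transcripts moved between the first hours and the end of the first day. Because each side was measured in the same dye orientation, a dye or probe bias that stays constant drops out of the difference.

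Between the early and the later hours 5 probes of 4 genes passed the test, and all were higher at 18 and 24 h. They were Gadd45a, a stress-inducible growth arrest gene, Vgf, the precursor of secreted neuropeptides, both probes of Hspb1, the small heat shock protein also called HSP27, and Stmn4, a neuronal stathmin that binds tubulin. They made up 0.101% of the 4936 probes tested (limma with Benjamini-Hochberg adjustment, two-sided, adjusted p under 0.05). No probe was lower past that threshold, with 141 lower at an unadjusted p under 0.05 (2.86%) and 133 higher (2.69%), and the methods' t-test adjusted in the same way also gave 0 lower. A fit with a mean for each of the 4 times instead gave 4 higher and 1 lower, of which only Gadd45a and Vgf 1D09 were among the 5, and the lower probe was Vegfa 52C12 (limma, adjusted p = 0.027). When any 1 of the 12 arrays was left out, only 1 or 2 probes still passed: Gadd45a in all 12 fits, joined by Vgf without replicate 2 of 18 h and by Hspb1 probe 9H02 without replicate 3 of 24 h. Scaling the arrays by their median log2 ratios left 0 probes past the threshold (184 at an unadjusted p under 0.05), with all 5 differences still positive. These medians were close to 0, from 0.0028 to 0.0164, so the arrays were stretched by unlike factors. This scaling did not bring the arrays to a common spread and cannot show whether the calls depend on spread.

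The 250 bases before the start of the genes are shown for those past the test, since they differed in the same direction. Of 5 genes sought in the RefSeq promoter table (assembly GRCr8), the other 2 being Atf3 and Stmn4, 3 were matched. All 3 lie on the minus strand, Gadd45a at chr4:97486800-97487049, Vgf at chr12:25277021-25277270 and Hspb1 at chr12:26432302-26432551, and each is written 5′ to 3′ toward its start. Capitals mark matches to the cyclic AMP response element (CRE, TGACGTCA), to heat shock half-site pairs (GAANNTTC or TTCNNGAA) and to the GC box (GGGCGG, read as CCGCCC on the other strand), searched on both strands.
Gadd45a: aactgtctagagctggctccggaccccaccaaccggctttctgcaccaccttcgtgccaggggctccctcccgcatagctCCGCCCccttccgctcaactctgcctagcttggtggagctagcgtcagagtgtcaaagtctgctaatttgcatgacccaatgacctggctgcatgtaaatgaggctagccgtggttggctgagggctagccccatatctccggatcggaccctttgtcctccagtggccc
Vgf: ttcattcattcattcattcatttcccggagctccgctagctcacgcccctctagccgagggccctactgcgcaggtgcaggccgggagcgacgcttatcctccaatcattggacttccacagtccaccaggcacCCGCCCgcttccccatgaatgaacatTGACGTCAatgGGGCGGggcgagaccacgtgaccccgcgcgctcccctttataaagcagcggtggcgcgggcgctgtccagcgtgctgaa
Hspb1: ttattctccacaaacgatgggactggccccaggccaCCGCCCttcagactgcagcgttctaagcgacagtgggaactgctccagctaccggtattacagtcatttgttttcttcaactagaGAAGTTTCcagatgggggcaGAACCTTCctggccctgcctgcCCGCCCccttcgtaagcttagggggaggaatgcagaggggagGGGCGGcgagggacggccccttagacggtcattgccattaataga

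The Vgf window held a CRE from 90 to 83 bases before the start, letters found in 1.59% of the 33469 promoter windows of that length. The Hspb1 window held GAAGTTTC from 129 to 122 bases and GAACCTTC from 109 to 102 bases before the start, and a pair of this form occurred in 7.23% of windows (13.5% with either form). GC boxes stood in all 3 windows and in 30.5% of all windows. The AP-1 letters TGANTCA, found in 6.34% of windows, and a CRE were not among the letters of the Gadd45a window. These matches describe the sequence and say nothing of binding, which was not measured.

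Gadd45a (probe 30G11) had the smallest p of all probes. Its log2 ratio of lesioned over intact ganglia was 1.97, 1.51 and 2.15 on the 18 h arrays and 1.69, 2.64 and 2.41 on the 24 h arrays, against -0.42, 0.23 and -0.06 on the 4 h arrays and 0.17, 0.56 and 0.03 on the 8 h arrays. Every later array lay above every earlier array, and the lowest later value exceeded the highest earlier value of 0.56. The means were 2.06 ± 0.43 at 18 and 24 h and 0.09 ± 0.33 at 4 and 8 h (SD, n = 6 each), that is 4.17-fold and 1.06-fold over intact ganglia. The difference was 1.98 ± 0.22 (SE), a 3.93-fold change of the ratio (limma, adjusted p = 0.00252). Over the fits that left out 1 array, the difference ran from 1.86 to 2.09 with an adjusted p from 0.00223 to 0.0121. After scaling the arrays by their medians, the difference was 2.16 with an adjusted p of 0.862 (limma).

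Vgf was measured by 2 probes. With probe 1D09 its log2 ratio was 1.76, 1.03 and 1.74 at 18 h and 2.13, 1.64 and 1.77 at 24 h, against 0.75, 0.58 and 0.44 at 4 h and 0.27, 0.69 and 0.57 at 8 h. The sides did not overlap, and all 6 earlier arrays were already above 0. The means were 1.68 ± 0.36 at 18 and 24 h and 0.55 ± 0.17 at 4 and 8 h (SD, n = 6 each), with a difference of 1.13 ± 0.18 (SE) and an adjusted p of 0.0264 in limma. With probe 52D09 the log2 ratio was 0.84, 0.97 and 0.89 at 18 h and 0.95, 1.05 and 0.41 at 24 h, against -0.08, 0.10 and 0.12 at 4 h and 0.35, 0.11 and -0.14 at 8 h. The sides again did not overlap, the difference was 0.77 ± 0.15 (SE), and the adjusted p of 0.101 missed the threshold. The mean of both probes differed by 0.95 with an adjusted p of 0.00655 in the fit by gene. The probes gave unlike ratios, since at 18 and 24 h probe 52D09 averaged 0.85 and probe 1D09 1.68.

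Hspb1 was measured by 2 probes that moved by nearly the same amount. Probe 52D12 read 1.15, 0.87 and 0.83 at 18 h and 0.86, 0.74 and 1.20 at 24 h, against 0.07, -0.12 and 0.15 at 4 h and 0.30, 0.10 and 0.02 at 8 h. Probe 9H02 read 0.47, 0.71 and 0.60 at 18 h and 0.85, 0.96 and 0.31 at 24 h, against -0.19, -0.33 and -0.13 at 4 h and -0.19, -0.20 and -0.28 at 8 h. Neither probe had overlapping sides. The differences were 0.86 ± 0.13 and 0.87 ± 0.14 (SE), or 1.81-fold and 1.82-fold (limma, adjusted p = 0.0264 for each). Stmn4 (probe 43D09) had log2 ratios of 0.53, 1.003 and 1.12 at 18 h and 1.09, 1.01 and 0.68 at 24 h, against -0.20, -0.65 and 0.07 at 4 h and -0.04, 0.05 and -0.08 at 8 h. Its earlier arrays lay around 0 and all later arrays stood above them, with a difference of 1.05 ± 0.17 (SE), 2.07-fold (limma, adjusted p = 0.0264). In fits that left out 1 array the adjusted p reached 0.0974 for Vgf 1D09, both Hspb1 probes and Stmn4, while the lowest difference of these 4 probes was 0.80.

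**Figure D1:**
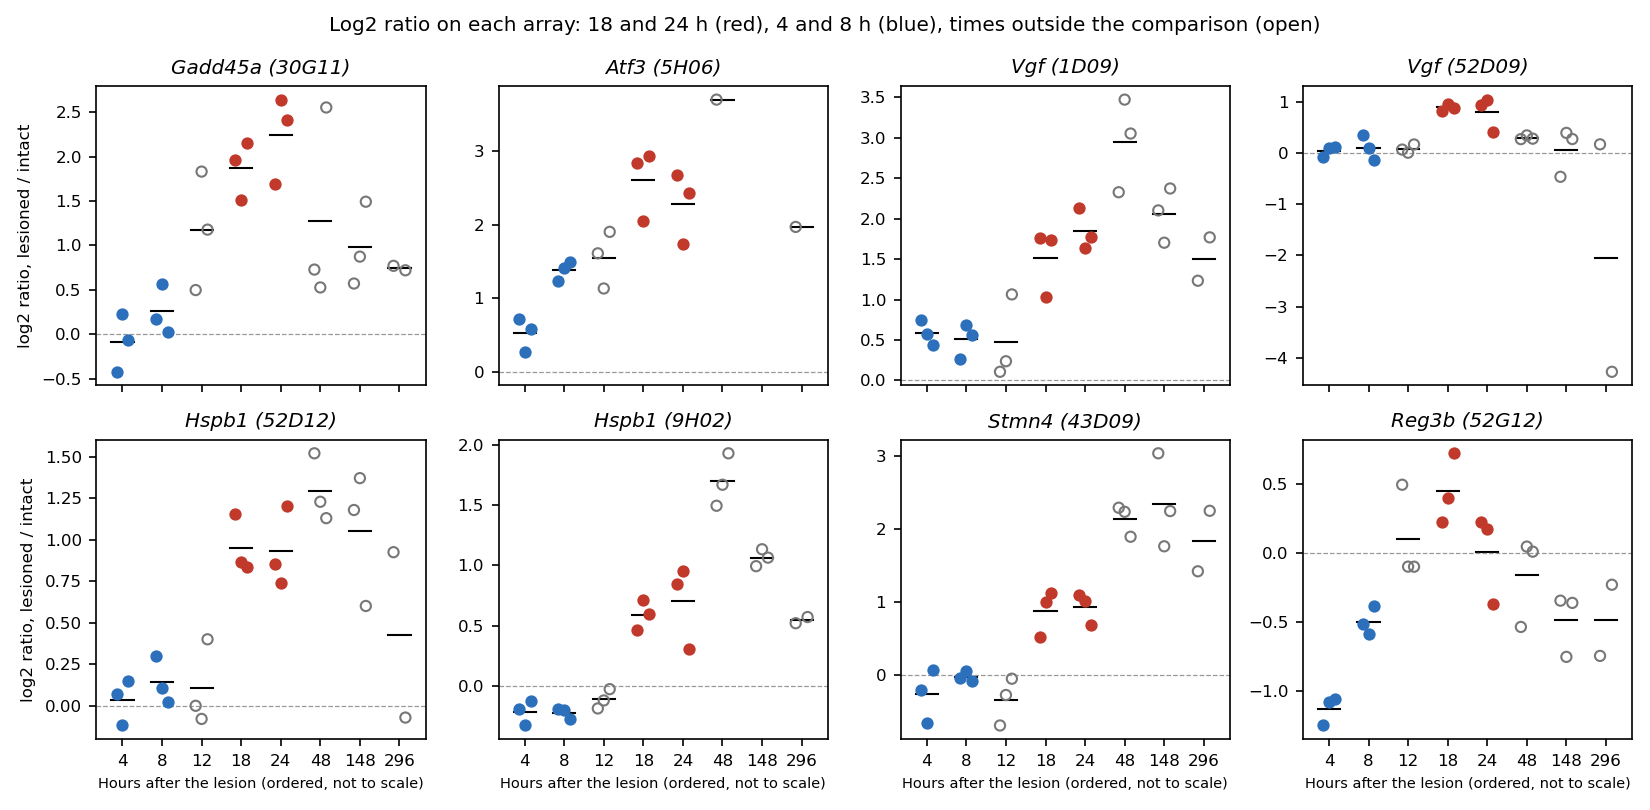
Log2 ratio of lesioned over intact ganglia (vertical axis, 1 point per array) at each time in hours after the lesion (horizontal axis, ordered and not to scale), for 8 probes. Filled points are the 12 arrays compared, red for 18 and 24 h and blue for 4 and 8 h, open points are times outside the comparison, and bars are means of a time. For all 8 probes every red point lies above every blue point; for Gadd45a the lowest red point is at 1.51 and the highest blue point at 0.56.

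Atf3, a bZIP transcription factor induced by axon injury, had the highest later ratio of the injury list and was just outside the threshold. Its probe 5H06 read 2.84, 2.05 and 2.93 at 18 h and 2.67, 1.73 and 2.43 at 24 h, against 0.71, 0.27 and 0.58 at 4 h and 1.23, 1.41 and 1.50 at 8 h. The sides did not overlap, and the 8 h arrays all exceeded the 4 h arrays. The means were 2.44 ± 0.47 at 18 and 24 h and 0.95 ± 0.50 at 4 and 8 h (SD, n = 6 each), 5.44-fold and 1.93-fold over intact ganglia. The difference of 1.49 ± 0.27 (SE) had an adjusted p of 0.0646 in limma. With a separate mean for each of the 4 times, which takes the step from 4 to 8 h out of the spread, the same difference had an adjusted p of 0.0344, and with all 23 arrays in the fit 0.0216. The range over all alternatives of Atf3, left-out arrays included, ran from 0.0216 to 0.862.

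The genes that mark the comparison were also tested singly. In the exact permutation test over all 924 ways to split the 12 arrays, two-sided, Gadd45a, Atf3 and both Vgf probes each had p = 0.00216, the smallest this design allows, and each was higher in 6 of 6 later arrays than in every earlier array. After scaling between arrays the same test gave 0.0541 for Vgf 1D09, 0.242 for Atf3, 0.00649 for Gadd45a and 0.00433 for Vgf 52D09. These 4 tests were on probes named with earlier results of the series in view.

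**Figure D2:**
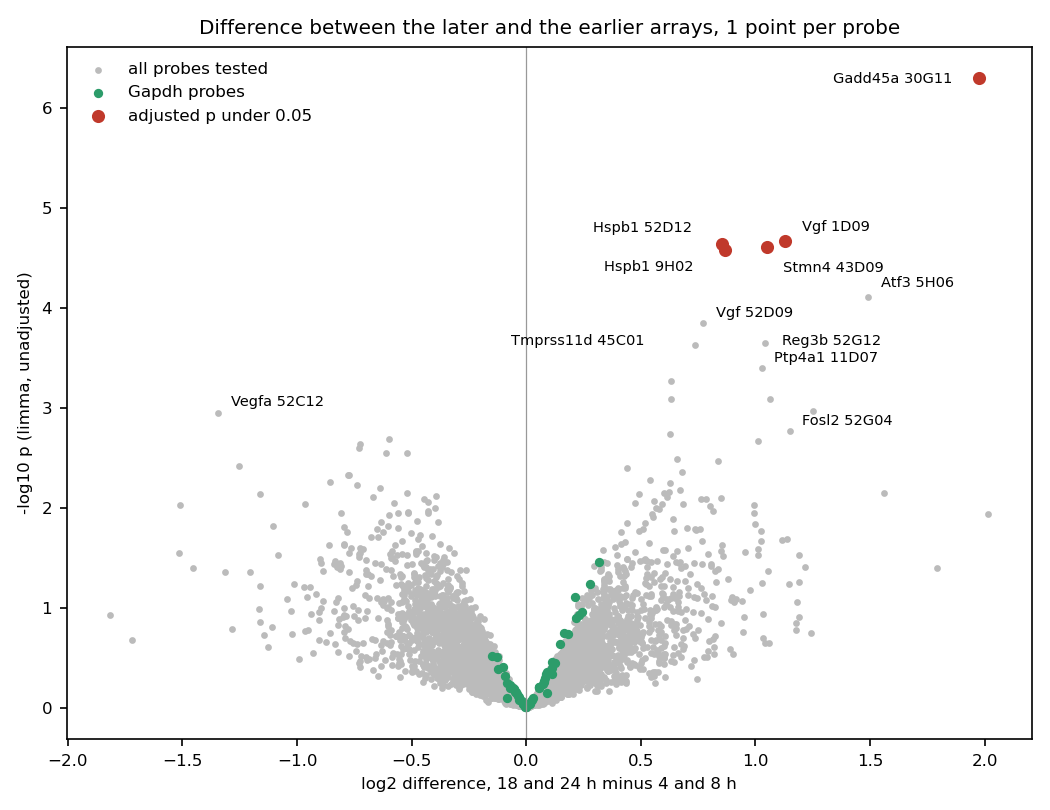
Difference in log2 ratio, 18 and 24 h minus 4 and 8 h (horizontal axis), against -log10 of the unadjusted limma p (vertical axis), 1 point per probe for 4936 probes. The 5 red points are the probes past the threshold, all to the right of 0, and the 53 green points are Gapdh probes, which lie between -0.15 and 0.32.

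The size of a difference and its p did not rank the probes alike. Gadd45a ranked 2 of 4936 by the difference, Vgf 1D09 ranked 18, Stmn4 ranked 23, and the Hspb1 probes ranked 50 and 52. Muc5ac, a mucin, had the highest difference of 2.02 but an SE of 0.69 (limma, adjusted p = 0.802), and Pcyt1a, an enzyme of phosphatidylcholine synthesis, had the lowest of -1.81 with an SE of 1.09 (adjusted p = 0.853). These 2 were named after their values were seen. The sides did not overlap for 19 probes higher at 18 and 24 h (0.385% of those tested) and 11 lower (0.223%).

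The higher group held the 5 called probes, Atf3, Vgf 52D09 and 12 others. Among these, Reg3b, a secreted lectin of the Reg family, read 0.23, 0.39 and 0.72 at 18 h and 0.22, 0.17 and -0.37 at 24 h with probe 52G12, against -1.25, -1.08 and -1.06 at 4 h and -0.52, -0.59 and -0.39 at 8 h. The Reg3b sides were adjacent rather than apart, since replicate 3 of 24 h was only just above the highest 8 h array. Its difference was 1.04 (limma, adjusted p = 0.130), and the second probe, 32G07, differed by 0.75 with an adjusted p of 0.853. Others named after their values were seen were Tmprss11d, a serine protease (0.74, adjusted p = 0.130), Ptp4a1, a protein tyrosine phosphatase (1.03, adjusted p = 0.200), Pdlim1, an adaptor of the actin cytoskeleton (0.63, adjusted p = 0.241), and Ifitm3, an interferon-induced membrane protein (0.63, adjusted p = 0.314). Of the 19 probes, 2 were Gapdh probes, with differences of 0.21 (37A01) and 0.32 (50A01).

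The remaining higher probes without overlap, also named after their values were seen, included Ocm, the calcium-binding protein oncomodulin, which read 0.59, 0.48 and 0.42 at 18 h and 1.26, 0.98 and 0.60 at 24 h, against 0.22, -0.03 and 0.18 at 4 h and 0.01, 0.13 and 0.08 at 8 h (difference 0.63, adjusted p = 0.529). Cacna2d1, the α2δ subunit of voltage-gated calcium channels, had 1.08 ± 0.30 at 18 and 24 h and 0.42 ± 0.29 at 4 and 8 h (SD, n = 6 each), and its mean at 48 h was 2.76. H3f3b, a variant histone, differed by 0.44, Apba2, a neuronal adaptor protein, by 0.49 and Ctss, a lysosomal protease, by 0.99, none of them past the threshold in limma (adjusted p of 0.736 to 0.801).

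The 11 lower probes without overlap, named after their values were seen, were 4 without a gene symbol and Or8g23, Or8g20e, Andpro, Prl2a1, Bmp7, Syn3 and Homer1. Or8g23, an olfactory receptor, read -0.52, -0.46 and -0.24 at 18 h and -0.64, -0.33 and -0.25 at 24 h, against -0.04, 0.01 and 0.32 at 4 h and -0.07, 0.21 and 0.80 at 8 h (difference -0.61, adjusted p = 0.610). Bmp7, a growth factor of the TGF-beta family, differed by -0.73, with 2.00 on replicate 3 of 8 h and at most 0.61 on the other earlier arrays (adjusted p = 0.853). Syn3, a synapsin of synaptic vesicles, averaged -0.09 ± 0.08 at 18 and 24 h and 0.31 ± 0.18 at 4 and 8 h (SD, n = 6 each), and Homer1, a scaffold of the postsynaptic density, averaged -0.16 and -0.02 at the same times. The lowest adjusted p among these 11 probes was 0.594.

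The 53 Gapdh probes, spots of the same glycolytic enzyme, gave a yardstick for small differences. Their differences had a median of 0.02 and an SD of 0.11, from -0.15 to 0.32, with 0 past the threshold in limma and 1 at an unadjusted p under 0.05. Within an array the Gapdh probes had an SD of 0.11 to 0.28. All 5 called probes differed by more than the highest Gapdh probe, but they were called from these same differences. Probes that did not pass also lay beyond the Gapdh range, such as Muc5ac (2.02) and Pcyt1a (-1.81). The Gapdh range is therefore no separate support for the calls.

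The comparison splits into 18 h minus 4 h and 24 h minus 8 h, which share no array and were read side by side. In 18 h minus 4 h, 3 probes were higher (0.0606%) and 1 lower (0.0202%), together 0.0808% of 4949 probes (limma on the time means of the 12 arrays). The higher probes were Atf3 (2.09 ± 0.30 SE, adjusted p = 0.0381), Gadd45a (1.96 ± 0.30, adjusted p = 0.0491) and Reg3b 52G12 (1.58 ± 0.22, adjusted p = 0.0381), and the lower probe was Vegfa 52C12 (-2.22 ± 0.25, adjusted p = 0.0122). This count was 0 to 2 when 1 array of 4 or 18 h was left out, 0 when only those 6 arrays were fitted and 0 after scaling. It was 0 without replicates 1 and 3 of 4 h and without each replicate of 18 h, and 2 without replicate 2 of 4 h. In 24 h minus 8 h, 0 probes passed (limma, 287 or 5.8% at an unadjusted p under 0.05).

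Gadd45a differed by 1.99 in 24 h minus 8 h (adjusted p = 0.170), nearly as in 18 h minus 4 h. Hspb1 gave 0.92 and 0.79 (52D12) and 0.81 and 0.93 (9H02) in 18 h minus 4 h and in 24 h minus 8 h. Stmn4 gave 1.15 and 0.95, Vgf 1D09 gave 0.92 and 1.34, and Vgf 52D09 gave 0.85 and 0.70 in the same order. Atf3 gave 2.09 and 0.90, and Reg3b 52G12 gave 1.58 and 0.51. The test of the difference between the pairs of times called 0 of 4949 probes (limma, 231 or 4.67% at an unadjusted p under 0.05), with -1.19 ± 0.43 (SE) for Atf3 and -1.07 ± 0.31 (SE) for Reg3b 52G12 (adjusted p = 0.826 for each).

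**Figure D3:**
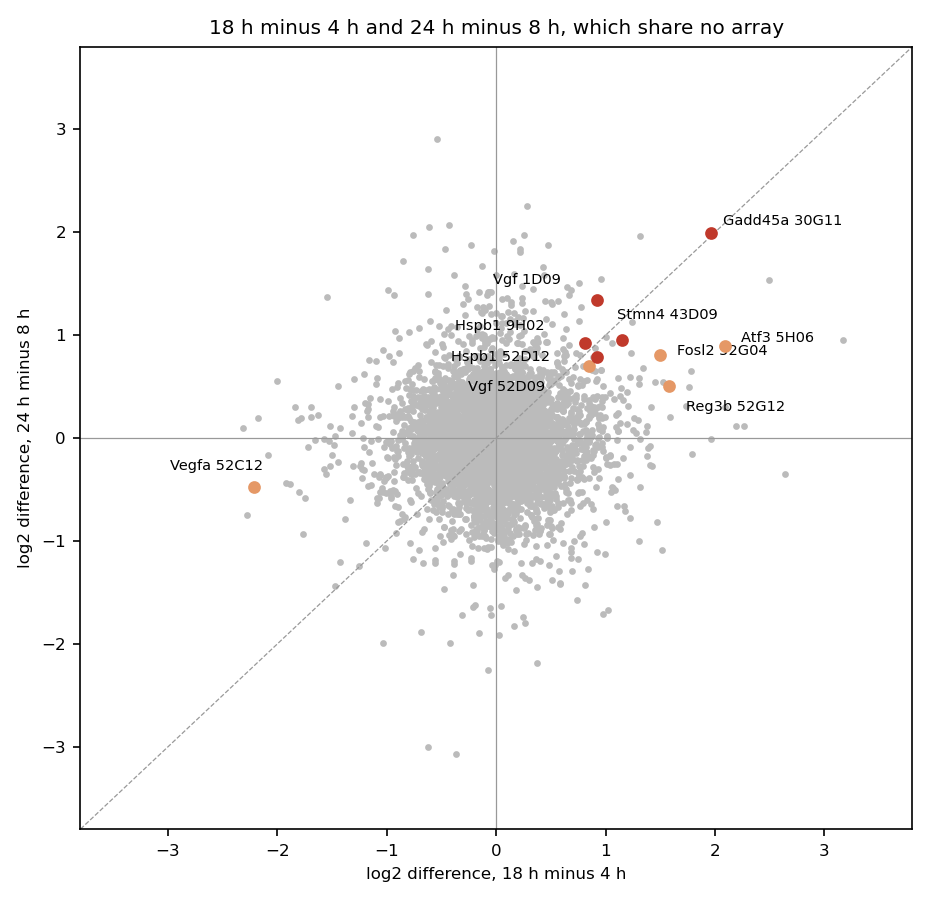
Difference in log2 ratio of 18 h minus 4 h (horizontal axis) and of 24 h minus 8 h (vertical axis), 1 point per probe for 4949 probes, with the diagonal dashed. Red points are the 5 probes past the threshold in the whole comparison and orange points other named probes; Gadd45a lies at 1.96 and 1.99, Atf3 at 2.09 and 0.90.

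Within a side, no probe passed between its times. In 24 h minus 18 h, 0 probes passed (limma, 228 or 4.61% at an unadjusted p under 0.05), and in 8 h minus 4 h, 0 passed (270 or 5.46%). Atf3 differed by -0.33 in 24 h minus 18 h and by 0.86 in 8 h minus 4 h (adjusted p = 0.971 and 0.912). Gadd45a differed by 0.37 and 0.34 in those contrasts. Between 24 h and 18 h the Hspb1 and Stmn4 probes differed by -0.02 to 0.11.

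Vegfa, the vascular endothelial growth factor, was the only probe called lower in either pair of times. Probe 52C12 read -4.51, -4.62 and -4.40 at 18 h and -3.43, -2.81 and -3.11 at 24 h, against -2.07, -2.50 and -2.32 at 4 h and -3.10, -2.29 and -2.55 at 8 h. The 18 h arrays were the lowest of the 12, while those of 24 h overlapped the 8 h arrays. Over all 12 arrays the difference was -1.34 ± 0.32 (SE, limma, adjusted p = 0.368, and 0.027 with a mean for each time). The second Vegfa probe, 25C10, had means of -0.01 at 18 and 24 h and -0.06 at 4 and 8 h and a difference of 0.05, and the probes did not move alike.

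The 12 h arrays lay between the sides in time and took no part in the test. Gadd45a read 0.50, 1.83 and 1.18 at 12 h, within the range of 4 and 8 h on replicate 1, within that of 18 and 24 h on replicate 2 and between them on replicate 3. Atf3 read 1.61, 1.13 and 1.90 at 12 h, and its means were 0.52 at 4 h, 1.38 at 8 h, 1.55 at 12 h, 2.61 at 18 h and 2.28 at 24 h. Stmn4 (-0.69, -0.27 and -0.05), Hspb1 9H02 (-0.19, -0.12 and -0.03) and Vgf 52D09 (0.07, 0.01 and 0.17) were still low at 12 h. With the 12 h arrays added to the earlier side, 6 probes passed, the same 5 and Vgf 52D09, and the Gadd45a difference was 1.61.

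The same probes were read on the later arrays outside the comparison. Stmn4 had mean log2 ratios of 2.14 at 48 h, 2.35 at 148 h and 1.84 at 296 h, all above its 18 and 24 h mean of 0.91. Vgf 1D09 had 2.95, 2.06 and 1.50, and Hspb1 9H02 had 1.70, 1.06 and 0.55 at those times. Gadd45a had 1.27, 0.98 and 0.74, each below its mean of 2.25 at 24 h. In 48 h minus 12 h, a pair of times the comparison does not use, 0 of 4430 probes passed (limma on those 6 arrays, 547 or 12.3% at an unadjusted p under 0.05). The differences there were 2.48 for Stmn4 (adjusted p = 0.0818), 2.48 for Vgf 1D09 (0.127), 1.81 for Hspb1 9H02 (0.0915) and 0.10 for Gadd45a (0.961). Replicates 2 and 3 of 48 h lacked values for 735 and 1957 probes and had a wider spread (SD 1.22 and 1.48). The 148 h arrays lacked 3025, 1011 and 1837 probes (SD 1.61, 1.32 and 1.45). Replicate 2 of 296 h lacked 2219 (SD 1.6). The SD was 0.51 to 0.80 on the 12 compared arrays. Ratios at these later times are thus not on an equal footing with those of 18 and 24 h, and the part of this in the values was not tested.

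The list of injury transcription factors and stress genes, 32 probes of 30 measured genes, held 1 called probe, Gadd45a, beside 0.101% of all probes. The list had a median difference of 0.18 beside -0.02 over all probes. Of its 32 probes, 21 had a positive difference, beside 47.4% of all probes. At an unadjusted p under 0.05, 6 were higher and 1 lower, beside 2.69% and 2.86% of all probes. The list holds the marker genes Gadd45a and Atf3. It was written with earlier results of these data known, so these counts are not independent. Fosl2, a subunit of the AP-1 factor, differed by 1.15 (adjusted p = 0.529), with means of -0.46 at 18 and 24 h and -1.61 at 4 and 8 h, so the ratio was below 0 on both sides. Atf4, a factor of the integrated stress response, differed by 0.60 and 0.34 with its 2 probes, Myc by 0.73 and Sox11, a neuronal transcription factor, by 0.52. Gadd45g, a relative of Gadd45a, differed by 0.12, with 0.79 ± 0.46 at 18 and 24 h and 0.68 ± 0.60 at 4 and 8 h (SD, n = 6 each), and by -0.07 after scaling. Smad1 differed by -0.69 and Klf4 by -0.43. Apart from Gadd45a and Atf3 the lowest adjusted p of these genes was that of Fosl2.

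Of the regeneration-associated genes, 3 of 52 probes (2 of 43 measured genes) passed, namely both Hspb1 probes and Stmn4, beside 0.101% of all probes, with a list median of 0.09 beside -0.02 over all probes. Gap43, a growth cone protein, had 0.40 ± 0.37 at 18 and 24 h and 0.11 ± 0.10 at 4 and 8 h (SD, n = 6 each), a difference of 0.29 (adjusted p = 0.853), and its mean at 48 h was 1.19. The other stathmins measured, Stmn1, Stmn2 and Stmn3, differed by -0.08, 0.03 and -0.04. They stood apart from Stmn4 in these arrays, though the difference from Stmn4 was not tested. Sprr1a, a cornified envelope protein induced in injured neurons, averaged -0.81 at 18 and 24 h and -1.15 at 4 and 8 h and differed by 0.34. In the heat shock and chaperone list the 2 called of 30 probes were again those of Hspb1, beside 0.101% of all probes, and the list median was 0.04. The other small heat shock proteins, Hspb3, Hspb6, Hspb8 and Cryab, differed by 0.14, 0.07, 0.27 and -0.21.

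Among the injury-associated neuropeptides 1 of 14 probes passed, the marker Vgf 1D09, beside 0.101% of all probes, and the list median was 0.05. Gal (galanin) had 0.28 ± 0.17 at 18 and 24 h and -0.09 ± 0.61 at 4 and 8 h (SD, n = 6 each), and Npy (neuropeptide Y) had 0.11 ± 0.27 at 18 and 24 h and 0.05 ± 0.28 at 4 and 8 h. Neither differed beyond its spread, while both had higher ratios on the 48 h arrays, with Gal at 4.28, 3.89 and 5.48 and Npy at 2.51 and 3.10 where it was measured. Vip differed by -0.53, Crh by -0.32 and Grp by 0.62, with adjusted p of 0.853 or above for each. The genes that the study's text discusses had 1 of 13 probes called, beside 0.101% of all probes, and a median of 0.29. That list holds Atf3 and both Vgf probes and was taken from the study's text with its results known, so its direction is not independent. In it Il6, an injury cytokine, differed by 0.26, the 3 Mt1 (metallothionein) probes by 0.41, 0.50 and 0.02, and Slpi, a secreted protease inhibitor, by -0.38.

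Cholesterol synthesis genes had 0 of 14 probes called, beside 0.101% of all probes. Their median was 0.20 beside -0.02 over all probes, with 11 positive beside 47.4% of all probes. Fdps, an enzyme of isoprenoid synthesis, differed most (0.39, 0.63 ± 0.28 at 18 and 24 h and 0.25 ± 0.14 at 4 and 8 h, SD, n = 6 each; adjusted p = 0.853). Nociceptor genes (0 of 20, median 0.01) and gp130 cytokines and their receptors (0 of 13, median -0.0025) lay near the median of all probes. None of the 20 and the 13 had an unadjusted p under 0.05, beside 2.69% higher and 2.86% lower over all probes.

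The markers of other cells in the ganglion were read in the same way. In the 9 cell lists 0 probes were called, beside 0.101% of all probes (limma). The medians were 0.02 for 9 macrophage and microglia probes, -0.19 for 12 myelinating Schwann cell probes, -0.07 for 11 satellite glia probes, -0.07 for 9 fibroblast probes and 0.09 for 7 endothelial probes. They were -0.0018 for 7 skeletal muscle probes, -0.15 for 7 blood probes, 0.00059 for 7 T lymphocyte probes and 0.01 for 14 sensory neuron probes. At an unadjusted p under 0.05, 1 macrophage and 1 fibroblast probe were higher, beside 2.69% of all probes. At that level 1 probe each of the Schwann cell, endothelial, muscle and neuron lists was lower, beside 2.86% of all probes. The Schwann cell list had 2 positive probes of 12, beside 47.4% of all probes, and Mag, a myelin protein, differed by -0.74 (33A02) and -0.24 (32H06). Tnnc2, a muscle troponin, read 0.01, 0.08 and 0.03 at 18 h and -0.11, 0.03 and -0.11 at 24 h, against 1.27, 0.45 and 1.49 at 4 h and -0.24, 2.48 and 3.55 at 8 h. It differed by -1.51 (adjusted p = 0.801). The other muscle probes ran from -0.32 (Myh1) to 0.31 (Tnnt3), and 3 of the 7 muscle probes were positive. The part of these cell types in the called genes was not tested.

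**Figure D4:**
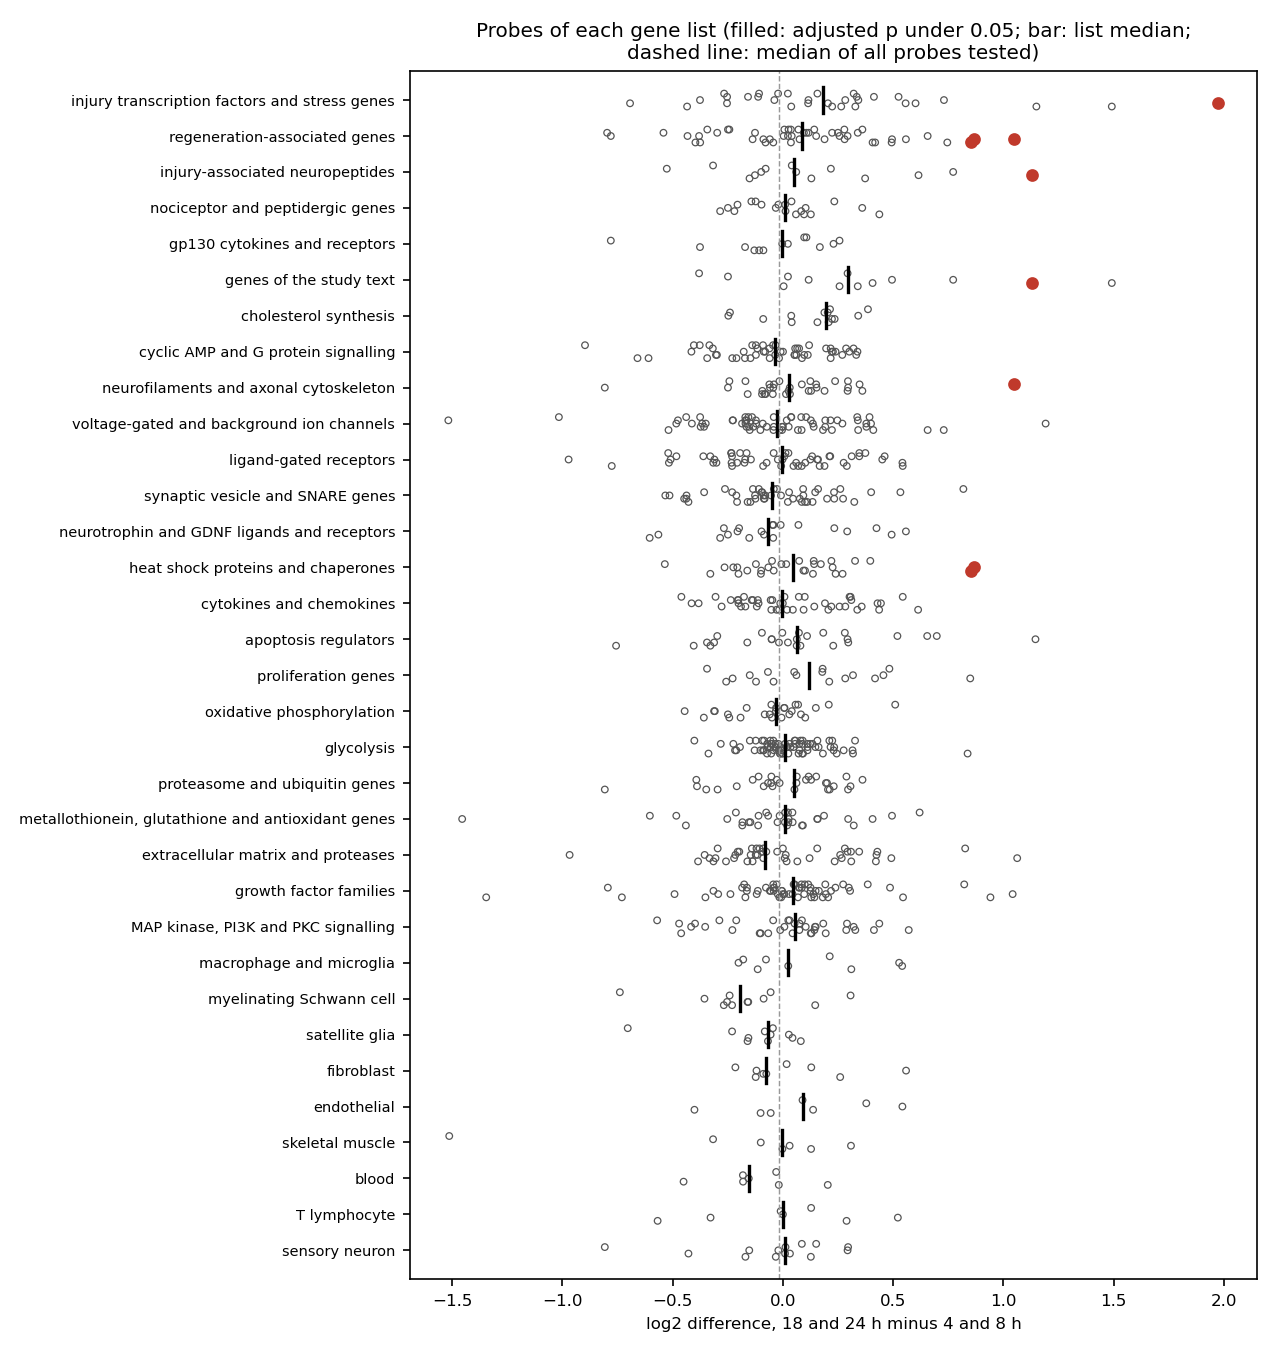
Difference in log2 ratio, 18 and 24 h minus 4 and 8 h (horizontal axis), of every tested probe in each of 33 gene lists (vertical axis). Filled red points are called probes, black bars are list medians and the dashed line is the median of all probes, -0.02; the injury list median is 0.18 and that of the Schwann cell list -0.19.

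The 12 arrays measured 4960 to 5009 probes, with median ratios from 1.002 to 1.011 and an SD of log2 ratios from 0.51 to 0.80. The SD ran from 0.51 to 0.80 on the later arrays and from 0.53 to 0.73 on the earlier arrays. Spearman correlations across probes were 0.190 to 0.421 within the later side, 0.210 to 0.350 within the earlier side and 0.152 to 0.386 between them, and probes are not independent replicates in such values.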

How the data were processed

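RNA of lesioned (Cy5) and intact (Cy3) ganglia was hybridised by the authors to spotted oligonucleotide arrays with dendrimer labelling, 1 lesioned and 1 intact sample per array, and no array exchanged the dyes. The deposited values were linear ratios, 1 ratio per probe and array, with array medians near 1. No source states their direction, so the dyes were used to read them as lesioned over intact. The scanner, background correction and normalization are not given in the sources used here. Intensities were not part of the files used, and precision rests on how many arrays there were. Every ratio was positive, and log2 ratios were computed from the deposited ratios without an offset.

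The comparison was fitted in R 4.3.3 with limma 3.58.1 (lmFit and eBayes, two-sided) as a mean for each side, over the 4936 probes with at least 5 of 6 arrays measured on each side. The 152 other probes were not tested. Adjustment was by Benjamini-Hochberg over all probes tested, and an adjusted p under 0.05 counted as past the threshold. The 18 h minus 4 h and 24 h minus 8 h differences, those within a side and the difference between those pairs used a mean for each of the 4 times over the 12 arrays (4949 probes, at least 2 arrays at each time). The 48 h minus 12 h difference used its own 6 arrays. Single probes of the marker genes were tested by exact permutation of the 12 arrays. The fit was tested on simulated data. Of the 5088 probes, 4423 had 1 gene symbol, 2 had several and 663 had none in the platform annotation, and 4375 matched the reference table by Entrez identifier with 0 symbols changed.

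Named were up to 15 probes past the threshold in each direction, every probe of the marker genes, up to 4 called members of each of 33 gene lists, and any member of the injury, neuropeptide and study-text lists, with other probes of the same gene beside them. Only some of the probes named after their values were seen are marked so. Uncalled members of the other lists, such as Mag, Fdps and Plat, fall outside this rule and carry no mark. They are to be read as named after their values were seen, both in the results and under the other observations. The members and lists were chosen with earlier results of these data known. Alternatives were median centring, scaling by the array median of log2 ratios, quantile normalization, other filters on missing values, array weights and robust variance. Others were time means, all 23 arrays, fits by gene (probes averaged), omission of the probes of plates 36, 52 and 53 and the methods' t-test. Further ones were 12 h arrays on the earlier side, the replicate number as a block and each array left out.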

Additional observations from a re-analysis of the deposited data

Results flagged for a closer look

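Each side of 30 named probes was examined for an array far from the other 5, as the gap to the nearest array divided by the range of the side. In 8 of 60 sides 1 array stood apart, and chance marks about 1 in 20 such groups. Vgf 52D09 had its lowest later value on replicate 3 of 24 h (0.41, nearest 0.84, gap share 0.665). Ptp4a1 had its highest on replicate 2 of 24 h (2.24, nearest 1.25, gap share 0.637), as did Ifitm3 (1.03, nearest 0.97, gap share 0.654), whose other 5 later arrays lay within 0.94 to 0.97. Smad1 read 1.12 on replicate 1 of 24 h beside a nearest value of -0.37 (gap share 0.808), and Sprr1a read -0.47 on replicate 1 of 18 h beside -0.80 (gap share 0.639). Among the earlier arrays, Atf4 7D01 read -0.75 on replicate 1 of 4 h (nearest -0.26, gap share 0.653), Il6 read -1.18 on replicate 3 of 8 h (nearest -0.51, gap share 0.657) and Cacna2d1, a calcium channel subunit, read -0.15 on replicate 1 of 8 h (nearest 0.40, gap share 0.659). Of these probes none passed the threshold of the comparison.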

How the results depend on the processing

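The count of 5 probes became 0 after scaling between arrays, 3 with array weights (Gadd45a, Vgf 1D09 and Hspb1 52D12) and 277 with the methods' t-test before adjustment (6 after it, the same 5 and Vgf 52D09), and ran from 1 to 2 with 1 array left out. It was 4 with quantile normalization, 4 without plates 36, 52 and 53 and 4 genes by gene means. It was 6 with 12 h arrays on the earlier side, and 5 with median centring, robust variance and both other filters. With time means it was 5 (4 higher and 1 lower) and with all 23 arrays 5, but only 2 of the original 5 probes were shared in each case. For 18 h minus 4 h, the count of 4 became 0 after scaling, 1 with array weights, 0 with only the 6 arrays and 0 to 2 with 1 array left out. For 24 h minus 8 h, 24 h minus 18 h, 8 h minus 4 h and the difference between those pairs of times, the count of 0 ran from 0 to 1 with 1 array left out, and 48 h minus 12 h had 1 call with array weights. The exact permutation p after scaling was 0.0541 for Vgf 1D09 (difference 1.22), 0.242 for Atf3 (1.45), 0.00649 for Gadd45a (2.16) and 0.00433 for Vgf 52D09 (0.64). Signs turned for Gadd45g after scaling (-0.067) and, with 1 array left out, for Gadd45g (-0.019 to 0.33), Npy (-0.014 to 0.16) and Slpi (-0.71 to 0.052). The cause of these changes was not tested. The scaling divided each array by a factor set by its median log2 ratio, which ran from 0.0028 to 0.0164 over the 12 arrays. Array spread, with median absolute deviations of log2 ratios from 0.31 to 0.59, did not enter it.

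Across all probes the replicate numbers showed no clear pairing of the arrays. Deviations from the time means correlated between same-numbered arrays at a median r of 0.02 (-0.13 to 0.11, 18 pairs). Between other numbers the median r was 0.0033 (36 pairs), and 4 of 12 arrays correlated best with their own number. These values cannot show whether same-numbered arrays shared animals, intact RNA or a batch. With the replicate number as a block the count was 1 (Gadd45a) for the whole comparison and 2 for 18 h minus 4 h. Without intensities, signal over background is unknown.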

Other observations

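Gene groups of metabolism, signalling and matrix had 0 called probes each in the comparison, beside 0.101% of all probes (limma, adjusted p under 0.05). Their few probes at an unadjusted p under 0.05 are given as values. In the growth factor families 4 of 64 probes were lower and 0 higher at that level (beside 2.86% and 2.69% of all probes), Vegfa 52C12, Fgfr1 48E12 (-0.79), Bmp7 (-0.73) and Erbb2 (-0.49), beside a list median of 0.047. Fgfr1, a fibroblast growth factor receptor, differed by 0.10 and -0.041 with its other probes, 52B08 and 29C08. Of 26 oxidative phosphorylation probes 2 were lower (beside 2.86% of all probes), Atp5me (0.26 ± 0.13 at 18 and 24 h and 0.71 ± 0.24 at 4 and 8 h, SD, n = 6 each) and Cox8a (0.095 ± 0.12 at 18 and 24 h and 0.45 ± 0.27 at 4 and 8 h, SD, n = 6 each), subunits of ATP synthase and of cytochrome c oxidase, and the list median was -0.031.

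Of 46 extracellular matrix and protease probes 2 were higher at that level (beside 2.69% of all probes), Mmp14, a membrane-bound matrix metalloproteinase (difference 1.06), and Plat, the tissue plasminogen activator (0.43), with a list median of -0.081. Mmp14 read 0.30, 0.26 and 1.35 at 18 h and 1.08, 0.95 and 0.58 at 24 h, against -0.15, -0.41 and 0.41 at 4 h and -0.19, -0.67 and -0.85 at 8 h, so only replicate 3 of 4 h reached into the later range. The 27 apoptosis probes had 0 at that level in either direction, beside 2.69% higher and 2.86% lower over all probes, and a median of 0.063.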
